A study of Homo sapiens with 23 samples.

Results

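The 10 genes described here make and modify fatty acids, and they were chosen by symbol: FASN, ACACA, ACLY, SCD, SREBF1, ELOVL5, ELOVL6, FADS1, FADS2 and ACSL3. They are 10 of the 60605 genes in the count table, and all 10 passed the filter on low counts that kept 26057 genes. The assay was PRO-seq (precision run-on sequencing), which labels the ends of RNA still being made, so a read marks a polymerase at work on the gene rather than an mRNA that has built up. All libraries came from dTAG-TRPS1 Clone 28, a single clone of the luminal breast cancer line T47D with a degron tag at the endogenous TRPS1 locus, in which the remaining copies of TRPS1 were knocked out and only the tagged protein was made. TRPS1 is a GATA-family transcription factor that represses its targets. Control cells received the vehicle DMSO at 0.1% for 24 h (n = 4). Treated cells received dTAG-13 and dTAG-V-1 at 50 nM each, together called dTAG, for 0.5, 1, 2 or 4 h (n = 4 each) or for 24 h (n = 3, replicates 2 to 4). All groups, DMSO included, carry the same tagged clone.

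Fatty acid synthesis starts from cytosolic citrate. ACLY cleaves citrate to acetyl-CoA, ACACA carboxylates acetyl-CoA to malonyl-CoA, and FASN builds palmitate from both. ELOVL6 and ELOVL5 lengthen fatty acids, SCD puts the first double bond into saturated chains, FADS2 and FADS1 desaturate polyunsaturated chains, and ACSL3 joins long-chain fatty acids to CoA. SREBF1 encodes SREBP1, a membrane-bound transcription factor that is cleaved in the Golgi and then activates genes of this pathway. Its relative SREBP2, encoded by SREBF2, mainly activates genes of sterol synthesis and uptake.

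A library held 4408544 to 17571616 counts (median 9768427), and the 10 genes together held between 5348 and 19924 counts. Levels are given as CPM, counts scaled to the size of the library, which was adjusted by TMM factors. Genes of mitochondrial DNA took 1.73% to 6.5% of the counts. The highest share was in the 4 h library of replicate 1, which also had the lowest total. Libraries with the same replicate number were harvested together, so each test is given without a replicate term, as designed, and with the replicate number as a block where this changes the call. A gene was called changed at a false discovery rate (FDR) under 0.1 over all kept genes. The summed level of 8 luminal epithelial markers was 4743 to 5045 CPM in DMSO, and lower without overlap at 0.5 h (4496 to 4649 CPM) and 1 h (4455 to 4633 CPM). It was 4420 to 4758 CPM at 2 h, 4496 to 4975 CPM at 4 h and 4531 to 4812 CPM at 24 h. This sum weighs genes by their level, and ESR1 and GATA3 had the highest mean counts of the 8, at 25549 and 10381. The sum of 12 markers of other cell types was 22.9 to 31.8 CPM. TRPS1 itself gives no check of the depletion, which acts on the protein.

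In DMSO, the genes differed widely in polymerase density, given as CPM per kilobase of annotated gene. SCD was highest at 6.2 ± 0.676 CPM per kb (SD, n = 4) and FASN next at 4.03 ± 0.650. SREBF1 at 2.31 ± 0.0608 and ACLY at 2.24 ± 0.115 followed, and their libraries overlapped. Then came ELOVL5 at 1.96 ± 0.0865, FADS2 at 1.52 ± 0.100, ACSL3 at 1.03 ± 0.111 and ACACA at 0.995 ± 0.0224 CPM per kb. The libraries of ACSL3 and ACACA overlapped as well. FADS1 at 0.855 ± 0.0808 and ELOVL6 at 0.279 ± 0.0258 CPM per kb were lowest. For FADS1, FADS2 and ACLY the annotated span begins well upstream of the RefSeq starts used for the promoters below. Their places in this order are therefore uncertain. FADS1 lies wholly within the annotated span of FADS2, on the other strand (hg38, chromosome 11, 61799627 to 61829318 within 61792980 to 61867354), and 4259 bases of FADS2 are shared with FEN1 on the same strand, so the FADS2 density is uncertain. SREBF1 shares 1055 bases with RAI1, on the other strand.

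**Figure D1:**
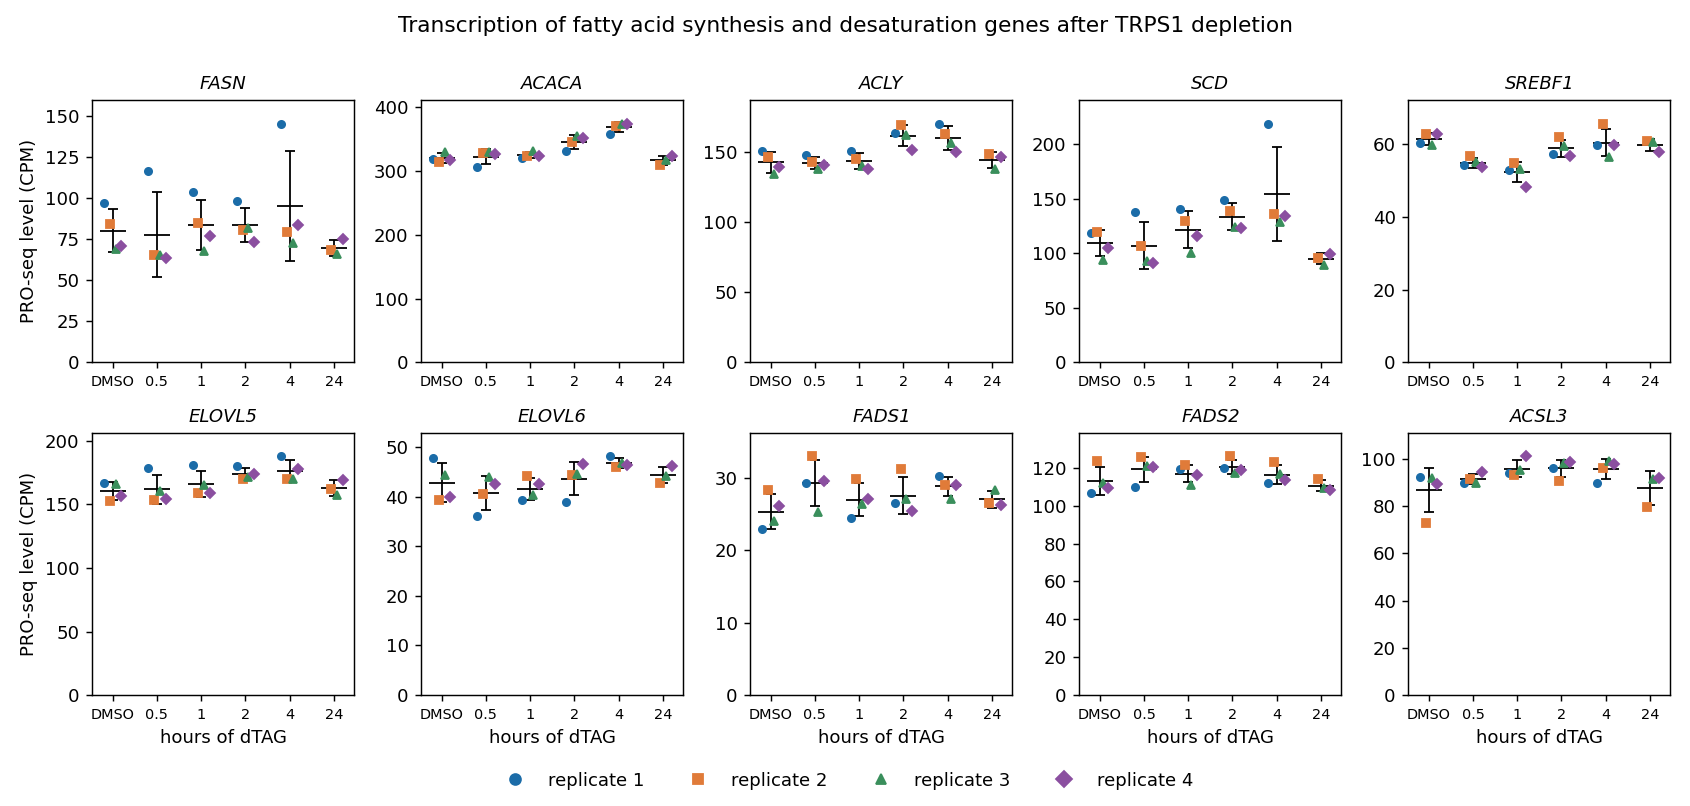
PRO-seq level in CPM (y axis, from 0) of each of the 10 genes in every library, by hours of dTAG (x axis, DMSO first). Points are libraries, marked by replicate number, and bars are the mean ± SD. The 4 SREBF1 libraries at 1 h sit between 48.2 and 54.7 CPM, all below the DMSO libraries, and the 4 ACACA libraries at 4 h sit between 358 and 374.3 CPM, all above DMSO.

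A first test asked which of these genes changed at any point within 4 h of dTAG. In edgeR's quasi-likelihood F-test over the 20 libraries, 3 of the 10 genes were called: ACACA (adjusted p = 0.00978), SREBF1 (adjusted p = 0.0612) and ACLY (adjusted p = 0.0800). Over all genes tested, 1.33% were called. With the replicate block, SCD (edgeR adjusted p = 0.00218) and ELOVL5 (edgeR adjusted p = 0.0554) were called too, making 5 of 10 against 4.6% of all genes. SREBF1 had a negative mean change over the time points, and the other 4 had positive ones. FASN, ELOVL6, FADS1, FADS2 and ACSL3 were called in neither fit. With total counts as library sizes, edgeR without the block lost its 3 calls.

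SREBF1 (ENSG00000072310, chromosome 17, 17810399 to 17837002, minus strand) was the first of the genes to be called. Replicates 1 to 4 gave 60.4, 62.7, 59.6 and 62.8 CPM under DMSO. After 0.5 h they gave 54.3, 56.7, 55.0 and 53.5 CPM, and after 1 h they gave 52.9, 54.7, 53.1 and 48.2 CPM. All 8 of these treated libraries were below all 4 DMSO libraries, as for 2.39% of all genes at 0.5 h and 2.91% at 1 h. In these bulk libraries, fewer transcribing cells and less transcription per cell cannot be told apart. The values were 57.3, 61.8, 59.6 and 56.6 CPM after 2 h and 59.8, 65.6, 56.4 and 59.7 CPM after 4 h, so both later groups overlapped DMSO. After 24 h the level was 60.7, 60.4 and 57.9 CPM. At 1 h, SREBF1 fell by 14.8%, a log2 fold change of -0.23 ± 0.05 (SE; edgeR adjusted p = 0.0189, lower in 4 of 4 pairs of the same replicate number). It was the only one of the 10 genes called at that time, against 1.25% of all genes. The log2 fold change after 0.5 h, -0.16 ± 0.05, passed only with the block (edgeR adjusted p = 0.212, and 0.0369 blocked). The later log2 fold changes, -0.06, -0.02 and -0.04 for 2, 4 and 24 h, did not pass in either fit. SREBF1 was higher at 4 h than at 0.5 h by 0.14 ± 0.05, again past the threshold only with the block (edgeR adjusted p = 0.274, and 0.0718 blocked). Without the block, the call at 1 h was lost on leaving out replicate 1 (edgeR adjusted p = 0.115), 3 (0.152) or 4 (0.318). With the block it was lost only on leaving out replicate 4, at an edgeR adjusted p of 0.101. The call was also lost with total counts as library sizes (edgeR adjusted p = 0.237) and with only the 2 groups compared (0.168). The summed level of the luminal markers was also below DMSO without overlap at 0.5 and 1 h, and its part in the SREBF1 result was not tested.

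The 2 enzymes that feed FASN are described next. ACACA (ENSG00000278540, chromosome 17, 37084992 to 37406836, minus strand), the rate-limiting enzyme of fatty acid synthesis, stood at 319.0, 313.7, 330.5 and 318.0 CPM in DMSO. Its libraries gave 330.9, 345.9, 354.4 and 351.1 CPM after 2 h of dTAG and 358.0, 370.9, 373.9 and 374.3 CPM after 4 h. Every library of both times was above every DMSO library. At 24 h the level was 309.1, 317.1 and 324.1 CPM, which overlapped DMSO. ACACA rose by 15.3% at 4 h (log2 fold change 0.21 ± 0.03, SE; edgeR adjusted p = 0.00251, higher in 4 of 4 pairs), and was the only one of the 10 genes called there, against 0.833% of all genes. At 2 h the log2 fold change was 0.11 ± 0.03, with an edgeR adjusted p of 0.247 and 0.0306 with the block. The change at 4 h lost its call without the block on leaving out replicate 2 (edgeR adjusted p = 0.101), 3 (0.124) or 4 (0.190), and kept its direction in each. With the block it kept its call whichever replicate was left out, at edgeR adjusted p-values from 0.000178 to 0.00926. With total counts as library sizes the log2 fold change was 0.17 and was not called (edgeR adjusted p = 0.691), and neither was the change with only the 2 groups compared (0.138).

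ACLY (ENSG00000131473, chromosome 17, 41866917 to 41930542, minus strand) was at 150.9, 146.4, 134.3 and 139.5 CPM in DMSO and at 163.8, 169.3, 162.4 and 151.3 CPM at 2 h. The 2 groups did not overlap. At 4 h it was at 170.5, 163.3, 156.6 and 150.3 CPM, where the lowest library fell just under the highest DMSO library. Its log2 fold changes were 0.18 ± 0.05 after 2 h (edgeR adjusted p = 0.121, and 0.00244 with the block) and 0.17 ± 0.05 after 4 h (edgeR adjusted p = 0.178, and 0.00674 with the block). The treated library was the higher one in 4 of 4 pairs at both times.

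SCD (ENSG00000099194, chromosome 10, 100347233 to 100364826, plus strand), the stearoyl-CoA desaturase, had the largest log2 fold change of the 10 genes at 4 h. Its level was 118.0, 119.2, 94.1 and 105.0 CPM in DMSO, 148.3, 138.7, 124.0 and 122.6 CPM after 2 h, and after 4 h 218.6, 135.5, 128.2 and 134.0 CPM. Neither treated group overlapped DMSO, and replicate 1 at 4 h stood far above the other libraries. The log2 fold change at 2 h was 0.29 ± 0.15 (edgeR adjusted p = 0.770, and 0.0500 with the block). At 4 h it was 0.49 ± 0.15 (edgeR adjusted p = 0.239), and with the block 0.46 ± 0.08 (edgeR adjusted p = 0.000964). Without the 4 h library of replicate 1, which had the highest mitochondrial share, the blocked value was 0.36 with an edgeR adjusted p of 0.00223. In the fit without the block it was then 0.28 and was not called (edgeR adjusted p = 0.590).

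FASN (ENSG00000169710, chromosome 17, 82078338 to 82098294, minus strand), the synthase itself, was not called at any time against DMSO, with or without the block. It was at 96.9, 84.4, 69.2 and 70.9 CPM in DMSO and at 145.5, 79.6, 72.6 and 83.7 CPM at 4 h. The 4 h log2 fold change of FASN was 0.23 ± 0.20 (edgeR adjusted p = 0.975), and with the block 0.20 ± 0.09 (edgeR adjusted p = 0.429). Without the 4 h library of replicate 1 it was -0.03 in the fit without the block and 0.10 in the blocked one. Replicate 1 was the highest FASN library in each of the 5 groups that hold it. With this spread, a change of the size seen in ACACA did not pass the test for FASN in either fit.

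The elongases and the polyunsaturated fatty acid desaturases were not called at any time against DMSO without the block. ELOVL5 was at 167.1, 152.7, 166.1 and 156.8 CPM in DMSO and at 187.8, 170.4, 170.1 and 178.2 CPM at 4 h, without overlap. The ELOVL5 log2 fold change there was 0.13 ± 0.05 (edgeR adjusted p = 0.461, and 0.0483 with the block). ELOVL6 was at 42.8 ± 3.96 CPM (SD, n = 4) in DMSO and 46.7 ± 0.946 CPM at 4 h, a log2 fold change of 0.13 ± 0.07 (edgeR adjusted p = 0.757). FADS1 had its highest level early, with 22.9, 28.4, 24.1 and 26.1 CPM in DMSO and 29.3, 33.0, 25.3 and 29.6 CPM at 0.5 h. The FADS1 groups overlapped, the treated library was higher in 4 of 4 pairs, and the log2 fold change of 0.21 ± 0.08 was not called (edgeR adjusted p = 0.504, and 0.190 with the block). FADS2 stayed between 106.9 and 126.0 CPM over all 23 libraries, with log2 fold changes from -0.03 to 0.09. ACSL3 was at 86.6 ± 9.29 CPM in DMSO and 95.8 ± 3.55 CPM at 1 h, a log2 fold change of 0.14 ± 0.06 (edgeR adjusted p = 0.466). The ACSL3 groups did not overlap at 1 h, as for 2.46% of all genes on the higher side. They came close, at 92.4 CPM for the highest DMSO library and 93.2 CPM for the lowest 1 h library.

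**Figure D2:**
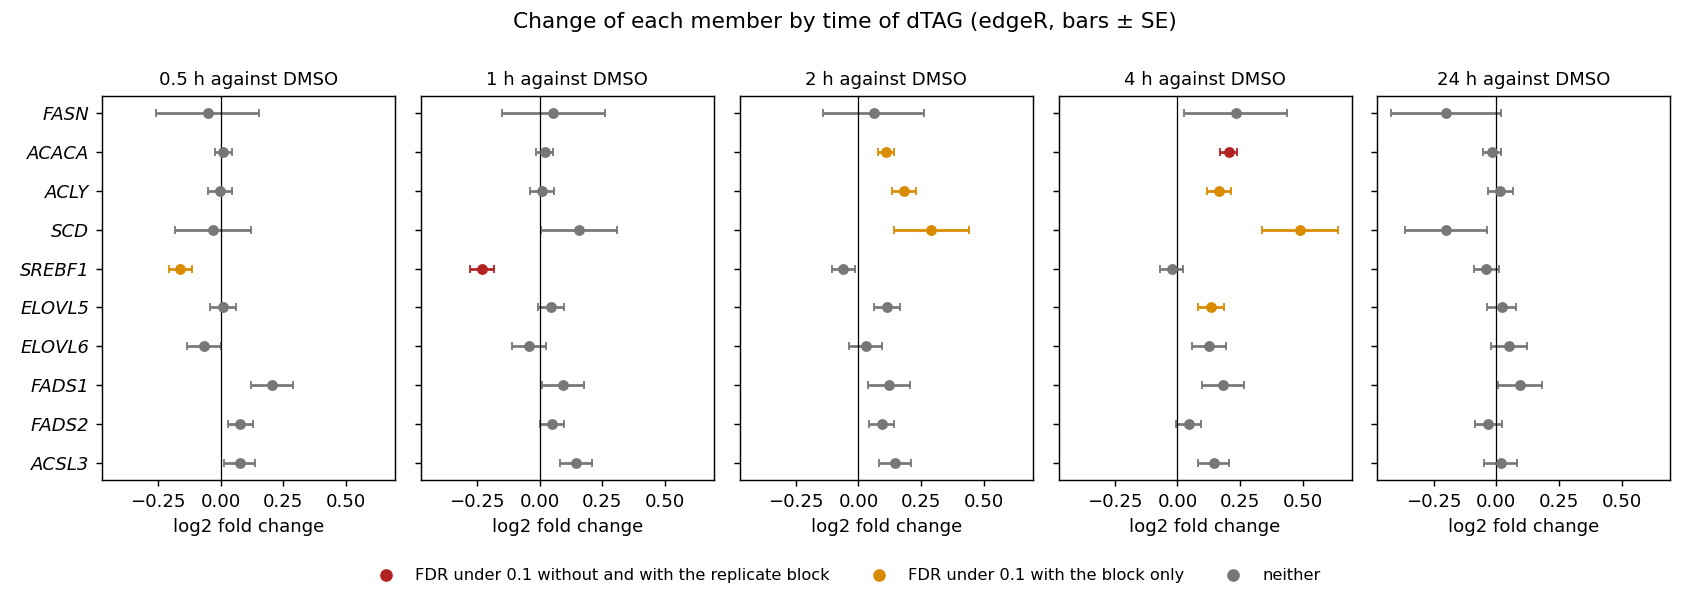
Log2 fold change against DMSO (x axis) of each gene (y axis) at the 5 times of dTAG, from the fit without the block, with bars of ± SE. Colors mark genes called without and with the replicate block, with the block only, or in neither; SREBF1 at 1 h (-0.23) and ACACA at 4 h (0.21) were called in both.

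Counting over the times, edgeR without the block called 0, 1, 0, 1 and 0 of the 10 genes at 0.5, 1, 2, 4 and 24 h, beside 0.476%, 1.25%, 0.733%, 0.833% and 0.863% of all genes. The comparisons share the DMSO libraries. At 0.5 h, 2 genes had an unadjusted p under 0.05, beside 7.68% of all genes, and at 2 h 4 had, beside 7.10%. DESeq2 called 0 genes at 0.5 h and 2 at 2 h, ACACA and ACLY. The share of all genes that DESeq2 called was not computed, and the edgeR shares do not stand in for it. With the block, edgeR called 1, 1, 3, 4 and 0 genes, beside 2.48%, 3.25%, 2.43%, 2.49% and 2.65% of all genes. The called genes at 2 h were ACACA, ACLY and SCD, and ELOVL5 joined them at 4 h. The groups did not overlap, on the higher side, for 4 genes at 2 h (2.65% of all genes) and 3 at 4 h (2.51%). The median log2 fold change of the 10 genes was 0.00, 0.05, 0.11, 0.15 and 0.00 at the 5 times, and that of all kept genes lay between 0.00 and 0.01.

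No library was taken between 4 h and 24 h, so the 24 h libraries show only whether the changes were present then. None of the 10 genes was called at 24 h against DMSO by edgeR without the block, by edgeR with the block or by DESeq2, and 0 had an unadjusted p under 0.05 in edgeR without the block. All 10 had a negative log2 difference between 24 h and 4 h, except that SREBF1 (-0.02) was at 0.051 with total counts as library sizes and at 0.0033 without the low-count filter. ACACA was lower at 24 h than at 4 h by a log2 difference of -0.22 ± 0.04 (edgeR adjusted p = 0.00666, lower in 3 of 3 pairs). SCD, at 95.6, 89.4 and 99.4 CPM at 24 h, was lower by -0.69 ± 0.16 (edgeR adjusted p = 0.0942, lower in 3 of 3 pairs). The 24 h group has no replicate 1, so without the block a 24 h comparison sets unlike replicates side by side. Without the 4 h library of replicate 1 the SCD difference was -0.48, with an edgeR adjusted p of 0.206, and 0.000293 with the block. Neither gene was called in this comparison with total counts as library sizes (edgeR adjusted p = 0.692 for ACACA and 0.102 for SCD) or with only the 2 groups compared (0.337 and 0.532). Leaving out replicate 2, 3 or 4 also ended both calls without the block, and neither with it. Both calls compare with 0.453% of all genes called. ACLY differed by -0.15 ± 0.05 (edgeR adjusted p = 0.391, and 0.0981 with the block, where 1.77% of all genes were called). Between 4 h and 0.5 h, ACACA was the 1 gene called, higher at 4 h by 0.19 ± 0.03 (edgeR adjusted p = 0.00800), and with the block ACLY, SCD, SREBF1 and ELOVL5 were called as well, also higher at 4 h. Of all genes, 0.871% were called in this comparison, and 4.15% with the block.

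The sterol arm of the same regulatory system gives the nearest comparison. Of 23 genes of sterol synthesis and uptake, 22 were tested, and edgeR without the block called 0, 2, 8, 9 and 0 of them at the 5 times, all higher than DMSO. Of all genes, 0.476%, 1.25%, 0.733%, 0.833% and 0.863% were called at these times. The median of the sterol list was 0.26 on the log2 scale after 2 h and 0.24 after 4 h, beside 0.11 and 0.15 for the 10 fatty acid genes, and it was -0.05 after 24 h. HMGCS1, the synthase of HMG-CoA, rose by 0.51 ± 0.04 on the log2 scale at 2 h (edgeR adjusted p = 2.7e-06). The log2 changes of MSMO1, a sterol demethylation enzyme, at 2 h and of SQLE, the squalene epoxidase, at 4 h were 0.43 ± 0.07 and 0.35 ± 0.06 (edgeR adjusted p = 0.00222 and 0.00665). At 24 h against 4 h, 9 of the 22 were called, all lower, beside 0.453% of all genes called. The difference between the lists was not tested, since both were chosen with results known.

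Among 12 genes that control SREBP processing and expression, 2 were called, and both were higher. Both were called at 2 h and at 4 h, when 0.733% and 0.833% of all genes were. SREBF2 was at 92.2, 87.2, 92.0 and 91.9 CPM in DMSO, after 2 h at 103.2, 113.9, 104.9 and 104.2 CPM, and after 4 h at 127.5, 104.1, 111.6 and 108.9 CPM. It rose by 0.23 ± 0.06 on the log2 scale at 2 h and 0.31 ± 0.06 at 4 h (edgeR adjusted p = 0.0987 and 0.00918). INSIG1, which holds the SREBPs in the endoplasmic reticulum, rose by 0.48 ± 0.10 at 2 h and 0.57 ± 0.10 at 4 h (edgeR adjusted p = 0.0219 and 0.00533). SREBF1 and SREBF2 thus differed in direction at 1 h, with log2 fold changes of -0.23 ± 0.05 and 0.08 ± 0.06, the second one not called (edgeR adjusted p = 0.781).

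The ratio of SREBF2 to SREBF1 counts within each library does not depend on how libraries are scaled. This ratio was chosen after the values had been seen. The log2 ratio was 0.57 ± 0.07 (SD, n = 4) in DMSO, 0.76 ± 0.12 after 0.5 h, 0.88 ± 0.09 after 1 h and 0.86 ± 0.03 after 2 h. It was then 0.90 ± 0.18 after 4 h and 0.64 ± 0.10 (n = 3) after 24 h. All libraries from 0.5 to 4 h were above all DMSO libraries. At 24 h the groups overlapped. No test was made on this ratio.

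**Figure D3:**
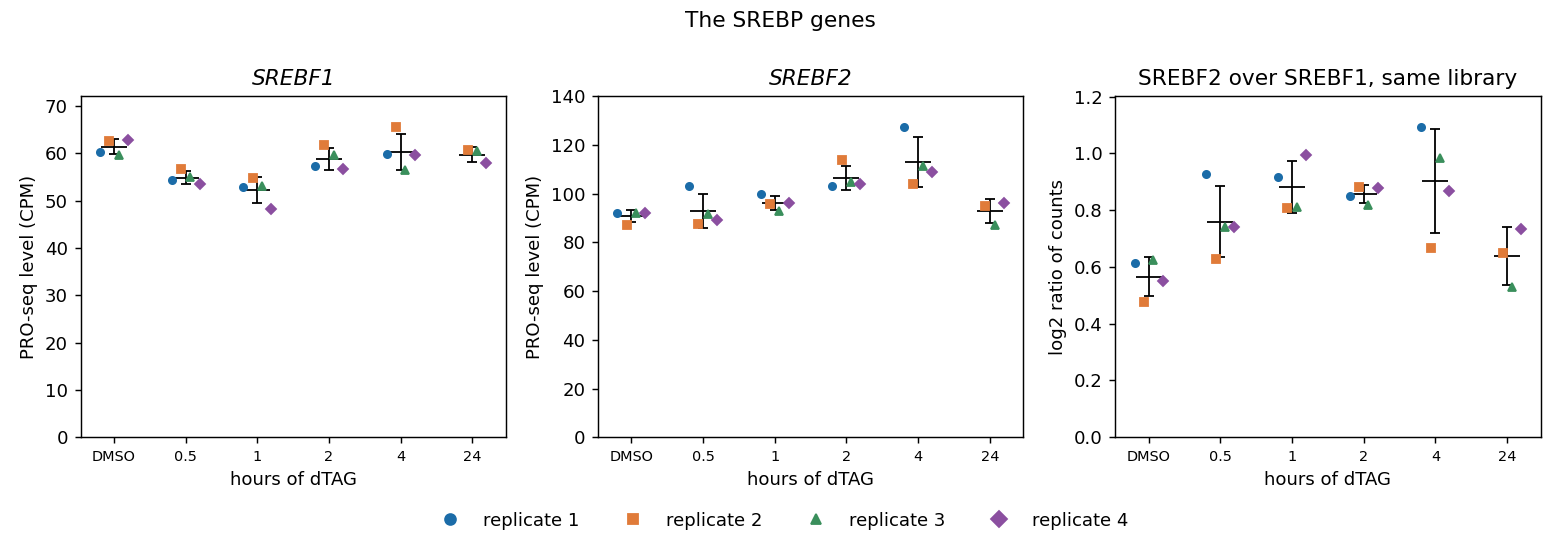
PRO-seq level in CPM (y axis, from 0) of SREBF1 and SREBF2, and the log2 ratio of their counts in the same library, by hours of dTAG (x axis). Points are libraries and bars are the mean ± SD. The mean log2 ratio goes from 0.57 in DMSO to between 0.76 and 0.90 from 0.5 to 4 h, and is 0.64 at 24 h.

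Promoters of some of the genes described above are shown: SCD, ACLY, ELOVL5, SREBF1 and SREBF2. They are examples and were not picked by a rule. In edgeR, SCD, ACLY and ELOVL5 were called against DMSO only with the block. SREBPs are known to bind sterol regulatory elements and E-boxes, often beside a CCAAT box. The promoter of ACACA, which was called at 4 h, is not printed. Its most upstream window held none of the motifs searched. RefSeq windows (GRCh38.p14, 250 bases before to 50 after a gene's start) were given for 9 of the 10 genes. FASN had no window. Both strands were searched for the core of a sterol regulatory element, spelled TCACNCCAC. The other motifs searched were an E-box with the letters CACGTG, the CCAAT box, and a GATA motif, for which the letters were AGATAA. No matches in the printed sequences overlap. The stretches run 5′ to 3′ on the strand of the gene, with matches in capitals, and a CCAAT box on the other strand reads in reverse complement.
SCD (chr10:100346984-100347071, plus strand): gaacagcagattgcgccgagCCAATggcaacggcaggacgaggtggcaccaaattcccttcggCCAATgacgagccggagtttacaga
ACLY (chr17:41919023-41919107, minus strand): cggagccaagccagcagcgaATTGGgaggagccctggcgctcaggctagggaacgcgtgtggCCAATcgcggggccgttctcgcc
ELOVL5 (chr6:53348994-53349181, minus strand): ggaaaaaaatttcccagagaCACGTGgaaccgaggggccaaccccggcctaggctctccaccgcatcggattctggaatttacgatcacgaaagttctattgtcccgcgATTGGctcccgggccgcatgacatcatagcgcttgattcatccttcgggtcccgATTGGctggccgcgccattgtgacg
SREBF1 (chr17:17836987-17837106, minus strand): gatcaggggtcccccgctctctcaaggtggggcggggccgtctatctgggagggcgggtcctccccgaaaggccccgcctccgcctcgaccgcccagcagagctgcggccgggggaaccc
SREBF2 (chr22:41832952-41833023, plus strand): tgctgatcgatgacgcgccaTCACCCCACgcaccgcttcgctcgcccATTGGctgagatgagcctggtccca

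The SCD window held CCAAT boxes starting 229 and 186 bases before the start, and the first ACLY window held them 65 and 23 bases before it. The ELOVL5 window held an E-box 211 bases before the start and CCAAT boxes 122 and 68 bases before it. Over the first window listed for each gene, a CCAAT box was in 4 of the 9 genes, ACLY, SCD, ELOVL5 and ACSL3, and in 35.7% of 27305 genes. Counting any window of a gene, it was in 6 of the 9 and in 39.7% of genes, ACACA and FADS2 entering through further windows, the FADS2 match after the start. An E-box was in the first window of 1 of the 9 and of 7.43% of genes. Among all windows of the 9, the sterol element core and the GATA motif were in none, beside 1.39% and 12.4% of genes. For SREBF1, none of the 4 motifs was found in its window, of which the 120 bases before the start are printed. SREBF2 held a sterol element core 133 bases before its start and a CCAAT box 106 bases before it. ACACA had 3 windows at alternative starts, of which the most upstream held no match and the others held CCAAT boxes. These matches describe letters in the windows and are not binding sites.

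Genes that supply or use fatty acids around the 10 were counted as called at any of the 5 times. The share of all genes called at any time was not computed. At single times it ran from 0.476% to 1.25% without the block and from 2.43% to 3.25% with it. In 8 genes of carbon and NADPH supply, 11 other elongation genes and 5 tested of 6 other desaturation genes, edgeR without the block called 0 at any time against DMSO, and so did DESeq2. With the block, edgeR called 1, 2 and 0 of them. Their genes with the smallest p were MID1IP1, which promotes polymerization of ACACA, at 4 h (log2 fold change 0.29 ± 0.08, edgeR adjusted p = 0.186, and 0.0297 with the block), HACD1, a dehydratase of elongation, at 2 h (-0.37 ± 0.12, edgeR adjusted p = 0.267, and 0.0886 with the block), and CYB5B, a cytochrome b5, at 4 h (0.17 ± 0.05, edgeR adjusted p = 0.215). The unadjusted edgeR p was under 0.05 at some time for 3 of the 8 carbon supply genes, 3 of the 11 elongation genes and 4 of the 5 desaturation genes, and for 23.3% of all kept genes.

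Of 8 tested acyl-CoA synthetases other than ACSL3, 1 was called. ACSL1, a long-chain acyl-CoA synthetase, rose by 0.38 ± 0.07 on the log2 scale at 4 h (edgeR adjusted p = 0.00533). Of 13 genes of glycerolipid assembly, 2 were called. LPIN1, a phosphatidate phosphatase, rose by 0.50 ± 0.08 at 2 h (edgeR adjusted p = 0.00183), and AGPAT4, an acyltransferase, by 0.54 ± 0.10 at 24 h (edgeR adjusted p = 0.0105). Of 18 tested genes of fatty acid oxidation, ETFB, an electron transfer flavoprotein subunit, was called, higher by 0.29 ± 0.07 at 24 h (edgeR adjusted p = 0.0920), and DESeq2 did not call it. CPT1A, which carries fatty acids toward the mitochondrial matrix, stood at -0.16 ± 0.05 on the log2 scale against DMSO after 0.5 h, called by DESeq2 (adjusted p = 0.0578) and with the block (edgeR adjusted p = 0.0598) but not without it (edgeR adjusted p = 0.208). The median log2 fold change of the oxidation genes stayed between 0.00 and 0.04 through all 5 times. Among the 8 luminal markers, GATA3 was called, and it fell by 0.22 ± 0.03 on the log2 scale at 1 h (edgeR adjusted p = 0.000717). With the block 4 of the 8 were called and by DESeq2 2, GATA3 and KRT19. The blocked log2 fold changes at 1 h were -0.21 for KRT19, -0.20 for KRT8 and -0.14 for XBP1 (edgeR adjusted p = 0.000378, 0.0499 and 0.0941), each lower in 4 of 4 pairs. Of the 7 tested markers of other cell types, edgeR and DESeq2 called 0, 1 had an unadjusted p under 0.05, and this gene, COL1A1, a fibroblast collagen, had its smallest p at 1 h (log2 fold change -0.36 ± 0.11, edgeR adjusted p = 0.207). The part of these markers in the results was not tested.

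**Figure D4:**
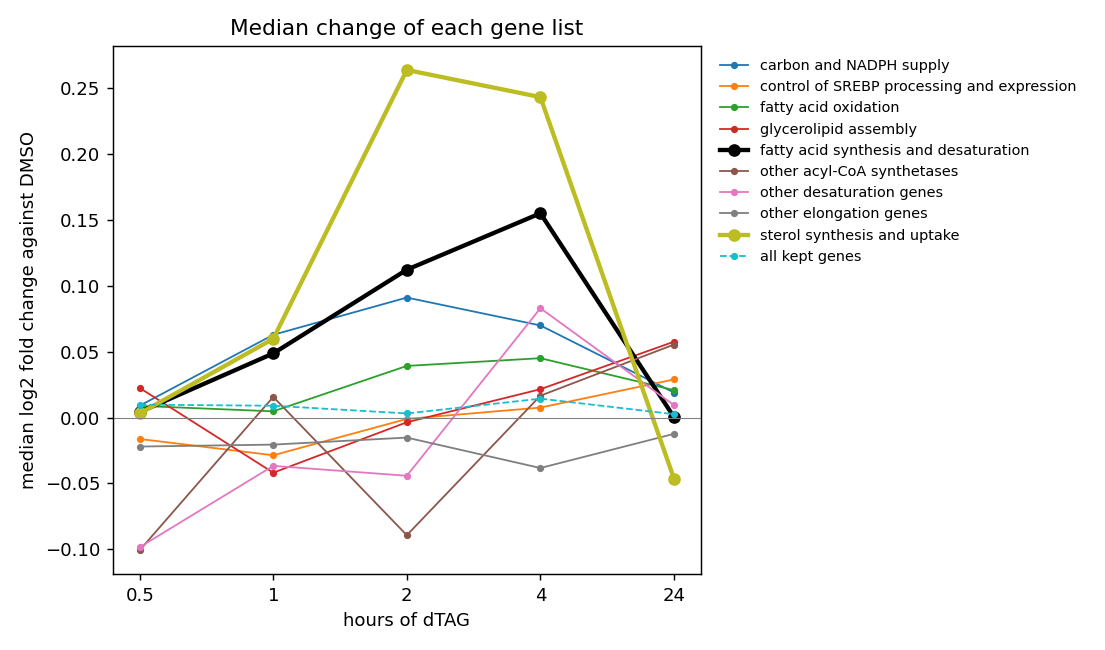
Median log2 fold change against DMSO (y axis) of each gene list by hours of dTAG (x axis, equally spaced and not to scale). Thick lines are the 10 fatty acid synthesis and desaturation genes, at 0.11 at 2 h and 0.15 at 4 h, and the sterol list, at 0.26 and 0.24; the dashed line is all kept genes, between 0.00 and 0.01.

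The profile of the 10 genes was compared with every other gene of at least 100 mean counts, 14138 in all, by Pearson's r over the 23 libraries after the mean of each replicate number was taken out. The closest were SREBF2 (r = 0.913), INSIG1 (r = 0.906), LSS (r = 0.888), FDFT1 (r = 0.878) and RDH11 (r = 0.878). LSS and FDFT1 are sterol synthesis enzymes and RDH11 is a retinol dehydrogenase. Without taking out the replicate mean, SQLE took the place of INSIG1 among the 5. Between the 10 genes themselves, r ran from -0.35 for SREBF1 and FADS2 to 0.84 for FASN and SCD, with a median of 0.36 over 45 pairs. The libraries of these correlations share depth and harvest, and r describes them only.

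The counts carry some signs of how overlapping genes were counted. C17orf78 lies on the other strand over 16724 bases of ACACA and had a mean of 2.13 counts, where the density of ACACA over as many bases would give 181.4. A pair of pseudogenes on the same strand inside ACACA had means of 9.22 and 10.4 counts, where the density of ACACA would give 8.83 and 9.3. The ACACA counts therefore show little mixing between strands, while the same-strand pseudogenes took counts near the density of ACACA. Whether the same reads also entered the ACACA count was not tested.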

How the data were processed

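The titles of the 23 T47D PRO-seq samples assign them to DMSO or to 1 of 5 times of dTAG. The authors trimmed adapters with cutadapt 1.8.1, collapsed duplicates by molecular identifier, removed ribosomal reads, aligned with Bowtie2 2.4.4 to hg38, used SAMtools 1.9 and counted reads per gene with bedtools. The deposited values are these raw counts. The annotation and the use of strand are not given in the sources used here. Symbols and spans came from GENCODE 44, which matched 60463 of 60605 identifiers.

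Counts were tested in R 4.3.3 with edgeR 4.0.16 (glmQLFit, glmQLFTest; filterByExpr with a minimum count of 10 and a minimum total of 15; TMM), two-sided, with Benjamini-Hochberg adjustment over all kept genes and FDR 0.1. The kept genes were 26057 for all libraries and 25255 for the 20 libraries of the time course. The standard error of a log2 fold change was taken as its size over the root of its F statistic. The scripts were tested on simulated data. The study describes staggered treatment and collection of the replicates within a day, so a replicate number marks a shared harvest. Deviations from group means correlated at a mean r of 0.287 over 55 same-number pairs and -0.0825 over 165 others. P-values measure the spread between these samples of 1 clone.

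Alternatives were the replicate block, median-of-ratios factors, total counts, no filter, DESeq2 1.42.0, each replicate left out and only the 2 groups compared. The block with a replicate left out and the removal of the 4 h library of replicate 1 were added after the data were seen. The 10 genes, the 10 other lists and the tests were chosen with earlier results of these data known. Genes of the other lists were named by the smallest p among those called against DMSO, up to 4 per list, or the 1 with the smallest p where none was called. A gene that this rule names in the sterol list is not reported here. Promoters came from RefSeq.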

Additional observations from a re-analysis of the deposited data

Results flagged for a closer look

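Among the 50 groups of 4 libraries of the 10 genes, 5 held a library far from the other 3 by Dixon's criterion, which flags about 1 group in 20 by chance. The library that stood apart was of replicate 1 in 4 of these groups and of replicate 2 in 1. FASN was at 116.6 CPM in replicate 1 at 0.5 h, with the next library at 65.5 CPM, and at 145.5 CPM in replicate 1 at 4 h, with the next at 83.7 CPM. SCD was at 218.6 CPM in replicate 1 at 4 h, with the next at 135.5 CPM. ACACA was at 305.8 CPM in replicate 1 at 0.5 h, the lowest of the 4, with the nearest at 326.9 CPM. ACSL3 was at 72.8 CPM in replicate 2 of DMSO, with the nearest at 89.2 CPM. The 4 h library of replicate 1 had the lowest total count, 4408544, and the highest mitochondrial share, 6.5%, and their part in its FASN and SCD levels was not tested.

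The effect of dTAG differed between times for ACACA and SCD by edgeR without the block. ACACA was lower at 24 h than at 4 h by a log2 difference of -0.22, and higher at 4 h than at 0.5 h by 0.19. SCD was lower at 24 h than at 4 h by -0.69. The 24 h group has no replicate 1, whose 4 h library was the highest for SCD. With the block the SCD difference was -0.56 (edgeR adjusted p = 0.000711). Without that 4 h library it was -0.48 in the fit without the block and was not called (edgeR adjusted p = 0.206).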

How the results depend on the processing

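Without the block, edgeR called 0, 1, 0, 1 and 0 of the 10 genes at 0.5, 1, 2, 4 and 24 h against DMSO, 2 at 24 h against 4 h, 1 at 4 h against 0.5 h and 3 over the time course. With the replicate block, which follows the pairing by harvest, the counts were 1, 1, 3, 4, 0, 3, 5 and 5. DESeq2 called 2 at 2 h, 2 at 4 h and 3 at 4 h against 0.5 h, and its share of all genes was not computed. With total counts as library sizes, 0 were called in every comparison, and with only the 2 groups compared 0 were called in each comparison of 2 groups. Without the low-count filter, 1 was called at 24 h against 4 h and 0 both at 4 h against 0.5 h and over the time course. Leaving out each replicate, or the 4 h library of replicate 1, with or without the block, gave 0 to 1 calls at 0.5 h, 0 to 1 at 1 h, 0 to 3 at 2 h, 0 to 4 at 4 h, 0 to 2 at 24 h against 4 h, 0 to 5 at 4 h against 0.5 h and 0 to 6 over the time course. The cause of these shifts was not tested.

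Some log2 fold changes near 0, none of them called, changed sign. With the block, ACLY at 0.5 h was 0.00016. Without the filter, ACLY was 0.0061 at 0.5 h and -0.000295 at 1 h, and SREBF1 at 24 h against 4 h was 0.0033. With total counts, ELOVL5 at 0.5 h was -0.0014, ACACA -0.0054 and ACLY -0.017 at 1 h, ACACA 0.016 and FADS2 0.000605 at 24 h, and SREBF1 at 24 h against 4 h was 0.051. Over the fits that left out libraries, the values at 0.5 h ran from -0.20 to 0.045 for FASN, -0.0071 to 0.031 for ACACA, -0.017 to 0.011 for ACLY, -0.13 to 0.021 for SCD, -0.024 to 0.030 for ELOVL5 and -0.12 to 0.033 for ELOVL6. They ran from -0.0080 to 0.018 for ACLY and -0.11 to 0.024 for ELOVL6 at 1 h, from -0.00128 to 0.11 for FASN and -0.044 to 0.12 for ELOVL6 at 2 h, and from -0.032 to 0.33 for FASN at 4 h. At 24 h they ran from -0.32 to 0.055 for FASN, -0.00957 to 0.047 for ACLY, -0.025 to 0.11 for ELOVL5, -0.032 to 0.098 for ELOVL6, -0.0035 to 0.17 for FADS1 and -0.00952 to 0.043 for ACSL3. SREBF1 at 24 h against 4 h ran from -0.068 to 0.024, and FADS1 at 4 h against 0.5 h from -0.069 to 0.035.

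The common dispersion was 0.0249 without the block and 0.00489 with it, and the replicate 1 libraries held 4408544 to 7886241 counts.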
